A study of Mus musculus with 8 samples.

Results

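Mammary cells that had been made to express DNp63 and were sorted in the basal gate were compared with luminal cells of CD1 females, over every gene in the deposited table. DNp63 is the form of the transcription factor p63 that lacks the N-terminal transactivation domain. The basal cells came from mice carrying K8rtTA, TetOCre and Rosa26-DNp63-IRES-GFP, in which rtTA made from a keratin 8 promoter turns on Cre in the presence of doxycycline, and Cre then releases DNp63 and GFP from the Rosa26 locus. They were sorted as GFP+ CD24+ CD29high cells and are called DNp63 basal here. The CD1 luminal cells came from mice without these alleles and were sorted as CD24+ CD29low cells with no GFP gate. Cells bearing CD45, CD31 or CD140a were gated out of all samples. The comparison was chosen by these gates and genotypes and uses 4 of the 8 RNA-seq libraries of the series, 2 in each group. CD1 basal cells (CD24+ CD29high, 2 libraries) served as the native basal reference. DNp63 luminal cells (GFP+ CD24+ CD29low, 2 libraries) entered the shared estimate of the spread and no tested contrast. Their values are given for a few genes and lists. The labels give 40000 cells for a luminal sort and 5000 for a basal sort, and describe all mice as females of mixed genetic background.

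The labels used here state neither the age of these mice nor the doxycycline schedule of the DNp63 line. They also do not say whether a library came from 1 mouse or from several, so the p-values measure the spread between these libraries. GFP marks a cell in which Cre acted and says nothing of the gate in which that cell began. Transgene, GFP gate and strain change together between the DNp63 and CD1 mice, as would any doxycycline given only to the DNp63 line. The number of cells sorted changes with the gate. The parts of these factors in any difference cannot be told apart. The comparison addresses how far cells that received DNp63 through a luminal keratin promoter, and now lie in the basal gate, stand from luminal cells in their transcripts.

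The mammary epithelium is a bilayer. Inner luminal cells carry simple keratins, tight junctions and receptors for oestrogen, progesterone and prolactin, and make milk in lactation. Outer basal cells carry stratified-type keratins, contract under oxytocin and rest on the basement membrane, and p63 is the transcription factor best known for keeping this basal layer and the basal layers of stratified epithelia.

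Values are reads per 20000000 reads of a library, and a difference is the mean log2(value + 8) of DNp63 basal minus that of CD1 luminal, after scaling, with its standard error (SE) from a limma fit. A gene was called at a Benjamini-Hochberg adjusted p under 0.05. The 8 libraries held between 4136998 and 7206729 reads on genes, so that 1 read stood for a value between 2.775 and 4.834. Log2 values of the 2 libraries of a group correlated across genes with Pearson's r between 0.965 and 0.980. The first principal component took 76% of the variance and parted the CD29high from the CD29low libraries. Libraries numbered 2 of both DNp63 groups stood apart: Xist, the X-inactivation RNA, was 141 in DNp63 basal library 2 and 36 in DNp63 luminal library 2, against 55545 or more in the other 6. In the DNp63 basal libraries 4 Y-linked genes were at 0. Counts over a list that move by over 1.5 times without DNp63 basal library 2 are given both ways.

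DNp63 basal cells differed from CD1 luminal cells in 7981 of 16900 tested genes (47.2%), 4235 higher (25.1%) and 3746 lower (22.2%). The median difference of all tested genes was -0.011. The largest differences were not evenly divided: 425 called genes were at least 16-fold higher and 112 at least 16-fold lower. Both libraries of 1 group lay above both of the other for 38% of genes in the higher and 35.2% in the lower direction. Without DNp63 basal library 2 the count was 5915, with 3230 higher and 2685 lower. The 12 highest called genes included Irx4, Igfbp3, Trp63 and Krt5, and the 12 lowest included Csn1s2a, Csn2, Spp1 and Lalba. The plot of all gene lists shows where each list lay.

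**Figure D1:**
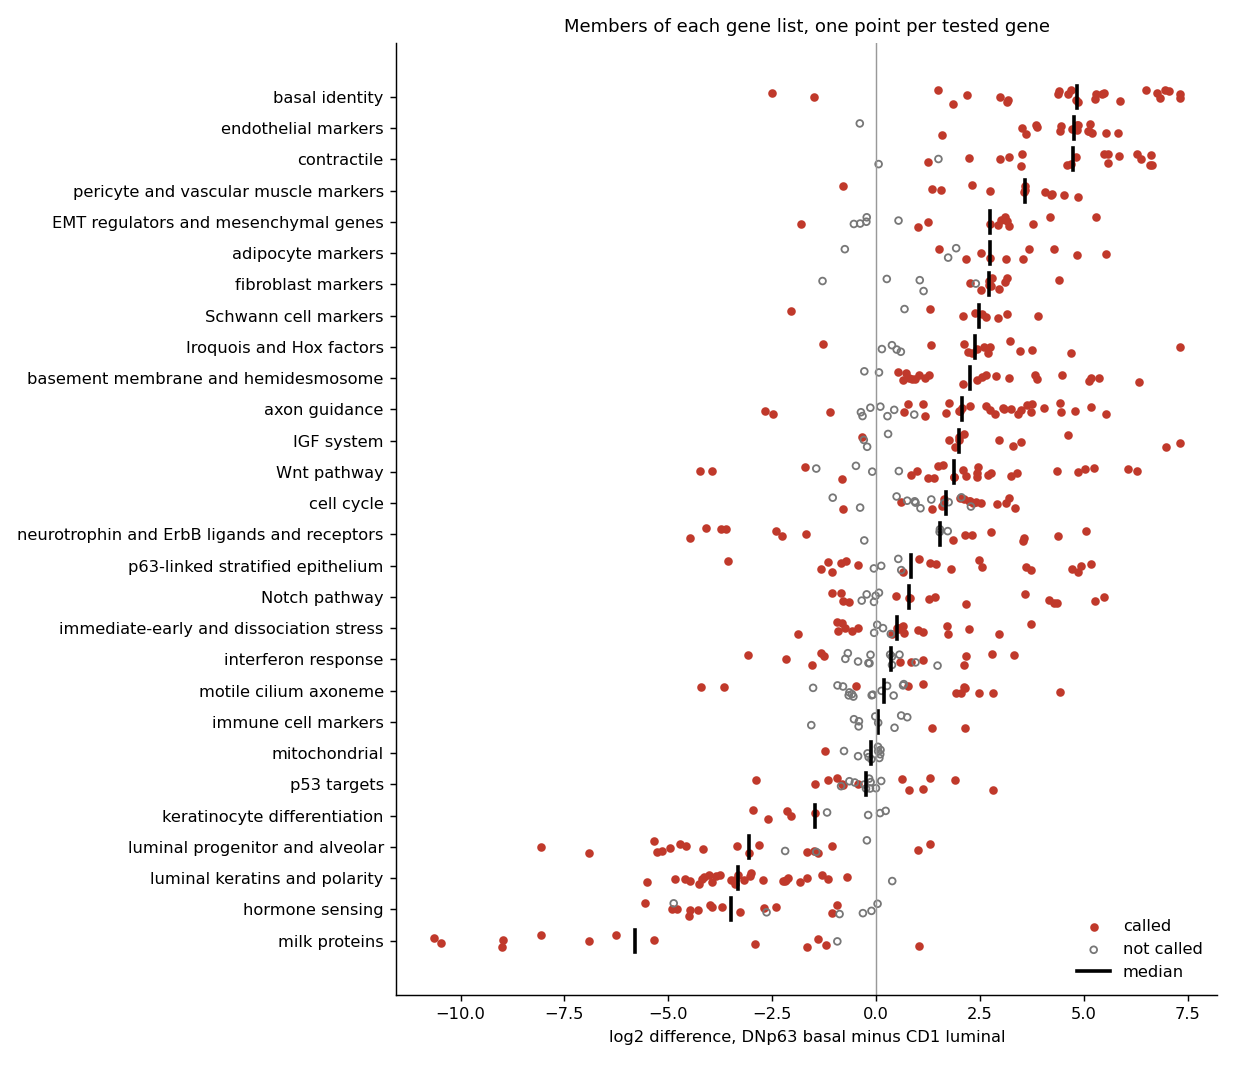
Log2 difference, DNp63 basal minus CD1 luminal (x axis), for each tested member of each gene list (y axis). Filled points are called genes, open points are not called, and the bar is the list's median. Basal identity genes have a median of 4.85 and milk protein genes a median of -5.79, at opposite ends.

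Trp63, on chr16:25683763-25892102 (GRCm38, plus strand), is the gene of p63. Its values were 61 and 45 (CD1 luminal), 8088 and 8306 (DNp63 basal) and 5457 and 7079 (CD1 basal). The difference from CD1 luminal was 7.06 ± 0.18 (SE, limma adjusted p = 1.08e-07). The groups did not overlap, and DNp63 basal lay above native basal by 0.38, which was not called (adjusted p = 0.485). Reads of the transgene and of the resident gene are counted together in these values. The 2 DNp63 luminal libraries, with 1297 and 1460, lay between the CD1 luminal and the basal libraries.

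Basal keratins and regulators stood at the same side. Krt5, a keratin of basal layers, read 110 and 97 in CD1 luminal and 13479 and 14973 in DNp63 basal, a difference of 6.97 ± 0.18. Its partner Krt14 read 401 and 230 against 35298 and 33798, a difference of 6.76 ± 0.22. Irx4, an Iroquois homeobox factor, read 11 and 4 against 2453 and 2418, a difference of 7.32 ± 0.32. In all 3 genes both DNp63 basal libraries lay above both luminal ones, and none differed from CD1 basal at the threshold (adjusted p from 0.201 to 0.973). Igfbp3, a secreted carrier of insulin-like growth factors, read 43 and 189 in CD1 luminal and 15127 and 17578 in DNp63 basal, a difference of 7.32 ± 0.52. Igfbp3 in CD1 basal read 4611 and 6552, under both DNp63 basal libraries, but this contrast did not pass (difference 1.55, limma adjusted p = 0.293). Leaving out CD1 luminal library 1 or 2 put its difference from luminal at 6.39 or 8.35.

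**Figure D2:**
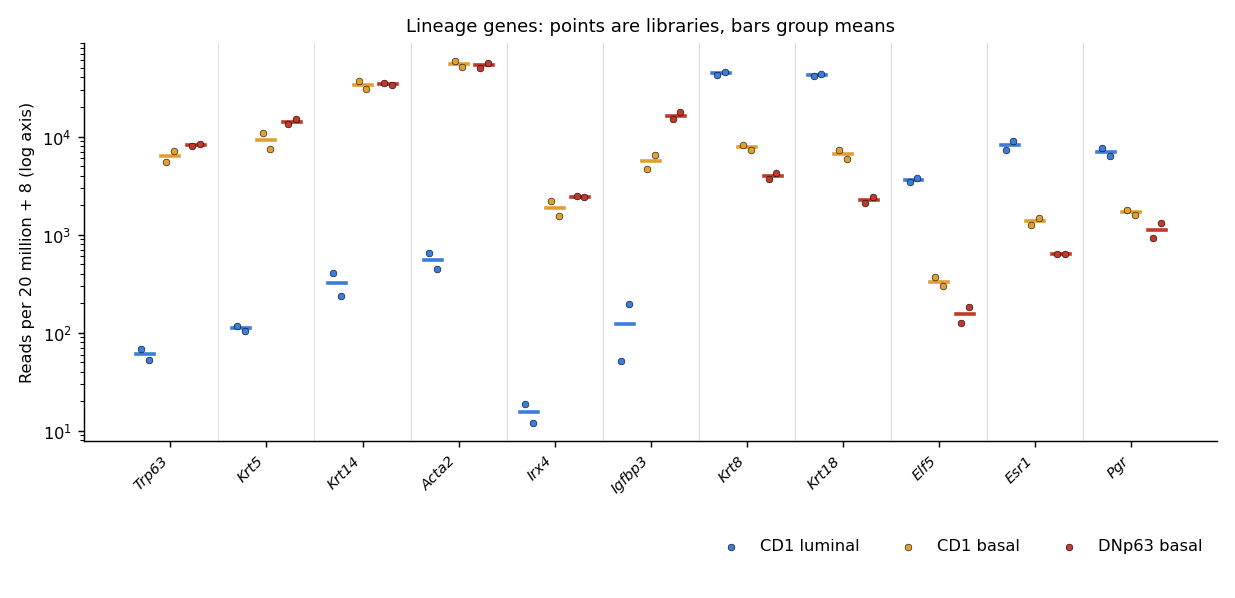
Reads per 20000000 plus 8 (log axis) of 11 lineage genes (x axis); points are libraries, bars are group means. Trp63, Krt5, Krt14, Acta2, Irx4 and Igfbp3 are low in CD1 luminal and high in both basal groups, and Krt8, Krt18, Elf5, Esr1 and Pgr run the other way.

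Of the 26 basal identity genes, all tested, 24 were called higher and 2 lower, with a median difference of 4.85. The same median for CD1 basal against the same luminal libraries was 4.88; the 2 comparisons share those luminal libraries. The 2 lower genes, named for going against the list, were Krt6a, a stress-inducible keratin, with 671 and 1445 in luminal against 215 and 136, and Tspan8, a tetraspanin, with 784 and 1408 against 346 and 411. CD1 basal libraries were also low in both (Krt6a 225 and 164, Tspan8 330 and 436). Without DNp63 basal library 2 the list again gave 24 higher and 2 lower.

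The contractile apparatus of the myoepithelium was present in the DNp63 basal libraries. Of 20 contractile genes, 18 were higher, none was lower and 2 were not called, with a median of 4.75. Acta2, smooth muscle actin, read 646 and 438 in luminal and 50512 and 56442 in DNp63 basal, a difference of 6.60 ± 0.17. Cnn1, calponin, read 79 and 67 against 7692 and 8669. Myh11, smooth muscle myosin heavy chain, read 525 and 326 against 39057 and 46363. Mylk, the kinase that activates myosin light chain, read 231 and 167 against 15582 and 19614. The libraries of these 4 genes did not overlap between the groups, and none of the 20 genes was called against CD1 basal by limma, where 0.716% of all tested genes were. One of the 20, a higher one, had an unadjusted p under 0.05 there. Limma voom on recovered reads also called 0, with 5 at an unadjusted p under 0.05, 1 higher and 4 lower. The median difference of the 20 from CD1 basal was -0.15. Without overlap of libraries 7 lay lower and 2 higher, where 22.8% and 19.8% of all tested genes did. Pericyte and vascular muscle markers, which share contractile genes in other tissues, were also higher in the basal libraries, and their part in this result was not tested.

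Myl9, a regulatory myosin light chain chosen for display after its values were seen, read 86 and 130 in luminal and 4873 and 5642 in DNp63 basal. Its upstream sequence is shown because it holds a CArG box, the motif of serum response factor, in capitals. The 250 bases before the start site (RefSeq, GRCm38.p6, chr2:156775214-156775463, plus strand) read as follows.
Myl9: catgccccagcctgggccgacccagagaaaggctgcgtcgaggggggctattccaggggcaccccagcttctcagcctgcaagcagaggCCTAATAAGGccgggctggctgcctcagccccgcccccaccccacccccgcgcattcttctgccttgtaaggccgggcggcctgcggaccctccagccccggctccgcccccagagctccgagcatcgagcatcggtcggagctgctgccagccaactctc
The motif was searched on both strands. It stood in 1.47% of 32851 RefSeq promoters of this length, and of 18 called contractile genes 14 had a promoter entry and 1, Myl9, held it. The match describes these letters and not a bound site.

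Basement membrane and hemidesmosome genes were higher, though by less. Of 24 genes, 22 were higher, none was lower and 2 were not called, with a median of 2.27. Col7a1, the collagen of anchoring fibrils, read 93 and 178 in luminal and 9610 and 13213 in DNp63 basal, a difference of 6.33 ± 0.34. Col17a1, a hemidesmosome collagen, read 398 and 464 against 14730 and 17419, a difference of 5.16 ± 0.13. The type IV collagen chains Col4a1 and Col4a2 differed by 5.14 ± 0.34 and 5.36 ± 0.26, Col4a1 by 5.78 without CD1 luminal library 2. Integrin genes, named after their values were seen, differed least among the called members: Itgb4 was higher by 0.63 and Itgb1 by 0.72, and Cd151, a tetraspanin that binds integrins, by 0.54. Itgb1 is the gene of CD29, whose level set the gates. Its direction is therefore tied to the sort and is no separate result on the basement membrane. Col4a1 and Col4a2 are also made by blood vessels, whose markers moved the same way, and the vessels' part was not tested.

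Genes linked to p63 in stratified epithelia were called in both directions. Of 24 genes, all tested, 13 were higher, 7 lower and 4 not called, with a median of 0.84 (12 higher and 4 lower without DNp63 basal library 2). One of the 24 passed the filter on low values only through the DNp63 basal libraries. The higher ones included adhesion genes: Dsc3, a desmosomal cadherin, read 15 and 4 in luminal and 350 and 547 in DNp63 basal, a difference of 4.73 ± 0.41. The factor Bnc1 read 4 and 19 against 721 and 416, and the protocadherin Fat2 read 249 and 97 against 4422 and 5357. Among the lower genes were Zfp750, Cldn1 and Jup. Zfp750, a factor of terminal epidermal differentiation, read 756 and 890 in luminal and 51 and 78 in DNp63 basal, a difference of -3.57 ± 0.30. Trp73, a relative of Trp63 named after its values were seen, had 1 read in the luminal libraries together and 164 in DNp63 basal, a ratio of 204 (95% exact counting interval from 36.1 to 8100). 

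Keratinocyte differentiation genes were mostly too low to test. Of 24, 9 reached a value of 40 in at least 2 libraries, and of these 9 none was higher, 5 were lower and 4 were not called. Tgm1, the transglutaminase of the cornified envelope, read 2085 and 1919 in luminal and 481 and 431 in DNp63 basal, a difference of -2.15 ± 0.21. Krt78 read 157 and 112 against 9 and 25. Sprr1a, an envelope precursor, read 383 and 1123 against 173 and 34 (difference -2.96 ± 0.96). Its call was lost without CD1 luminal library 2 or DNp63 basal library 2 (-2.14 and -1.91), and the difference was -3.68 and -4.01 without the libraries numbered 1. Leaving out either of those libraries left 3 members called.

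The luminal programme was lower nearly throughout. Of 29 luminal keratin and polarity genes none was higher, 28 were lower and 1, Ovol2, was not called, with a median of -3.31. Krt8 read 42397 and 45769 in CD1 luminal and 3688 and 4293 in DNp63 basal, a difference of -3.50 ± 0.12. Krt18, its partner keratin, read 41482 and 43028 against 2104 and 2423, a difference of -4.25 ± 0.13. Transcripts of the simple keratins were thus about 11.3-fold and 19-fold lower but still present. The claudins Cldn3, Cldn4 and Cldn7, which seal tight junctions, differed by -4.83, -4.59 and -4.48. Muc1, the apical mucin, read 2685 and 4853 against 64 and 83, a difference of -5.51 ± 0.28. Epithelial cadherin and the surface molecule EpCAM, named after their values were seen, were lower by less: Cdh1 by -2.19 ± 0.16 and Epcam by -3.18 ± 0.16. Without DNp63 basal library 2 the list again gave 28 lower.

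Hormone-sensing genes were lower in 14 of 20, with none higher and 6 not called. Their median was -3.49, or -3.83 with genes that had no reads in 1 group set at their bound. Esr1, the oestrogen receptor, read 7283 and 9073 in luminal and 628 and 624 in DNp63 basal, a difference of -3.71 ± 0.19. Pgr, the progesterone receptor, read 7642 and 6328 against 911 and 1315, a difference of -2.69 ± 0.31. Prlr, the prolactin receptor, read 63919 and 89018 against 3279 and 3476. Foxa1, a pioneer factor that works with the oestrogen receptor, read 10446 and 9280 against 262 and 402, a difference of -4.92 ± 0.22. The ligand Areg, an EGF-family growth factor known as a mediator of oestrogen in the duct, read 26480 and 14503 against 953 and 827. No library of either group crossed into the range of the other in these 5 genes.

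Luminal progenitor and alveolar genes were lower in 16 of 21 tested members (23 listed), with 2 higher and 3 not called, and a median of -3.07. Elf5, a factor of alveolar fate, read 3415 and 3731 in luminal and 119 and 175 in DNp63 basal, a difference of -4.58 ± 0.23. Kit, a receptor on luminal progenitors named after its values were seen, read 7510 and 7009 against 359 and 450. Ltf, lactoferrin, read 34702 and 24531 against 173 and 329, a difference of -6.91 ± 0.41. Folr1, a folate receptor, had 2 reads in DNp63 basal and 272 in luminal, a ratio of 109 (95% exact counting interval from 30 to 908). The 2 higher genes were Sox10 (1.30 ± 0.14), a factor also found in basal cells and in Schwann cells, and Itga2 (1.01 ± 0.28), an integrin subunit. The Itga2 call was lost when CD1 luminal library 1 (0.93), DNp63 basal library 1 (0.98) or DNp63 basal library 2 (1.05) was left out.

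Milk protein genes had the lowest median of the 29 lists. Of 17 listed genes 14 were tested, 12 were lower, 1 higher and 1 not called, with a median of -5.79. Csn1s1, an alpha-casein, had values of 30 and 102 (DNp63 basal), 3535 and 3462 (CD1 basal) and 31653 and 32470 (CD1 luminal). Csn2, beta-casein, read 22 and 0, then 2784 and 3725, then 22750 and 20234 in the same order of groups. Csn1s2a, another casein, had no read in either DNp63 basal library against 7060 reads in the luminal libraries together, at least 1890-fold lower when the floor is 3 reads over the group. Against the 1037 reads of the CD1 basal libraries it was at least 327-fold lower. All 3 genes were ordered CD1 luminal, CD1 basal, DNp63 basal with no overlap between groups. The DNp63 luminal libraries were also low in these 3 genes. They read 825 and 2172 for Csn1s1, 73 and 423 for Csn2, and 28 and 24 for Csn1s2a. Low casein values were thus common to both gates of the DNp63 mice, whose strain cannot be told apart from the transgene. Spp1, osteopontin, read 26749 and 44135 in luminal against 38 and 92, and Lalba, alpha-lactalbumin, read 5060 and 8332 against 5 and 39. The 1 higher gene was Xdh, xanthine dehydrogenase (1.03 ± 0.31), whose call was lost when CD1 luminal library 1 (0.54), DNp63 basal library 1 (0.87) or DNp63 basal library 2 (1.20) was left out.

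The casein genes lie together on chromosome 5, and the 250 bases before 3 of their start sites (RefSeq, GRCm38.p6) are shown because these 3 are among the 12 called genes with the lowest differences. Csn1s1 is at chr5:87665958-87666207 on the plus strand, Csn2 at chr5:87699426-87699675 on the minus strand and Csn1s2a at chr5:87774200-87774449 on the plus strand. Capitals mark the palindrome TTCNNNGAA, the core motif of STAT5, the factor that acts downstream of the prolactin receptor.
Csn1s1: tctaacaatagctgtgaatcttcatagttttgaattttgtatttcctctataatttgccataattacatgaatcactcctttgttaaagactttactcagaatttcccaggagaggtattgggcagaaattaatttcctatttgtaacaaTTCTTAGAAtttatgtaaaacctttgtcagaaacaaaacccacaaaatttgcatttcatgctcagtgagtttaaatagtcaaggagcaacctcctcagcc
Csn2: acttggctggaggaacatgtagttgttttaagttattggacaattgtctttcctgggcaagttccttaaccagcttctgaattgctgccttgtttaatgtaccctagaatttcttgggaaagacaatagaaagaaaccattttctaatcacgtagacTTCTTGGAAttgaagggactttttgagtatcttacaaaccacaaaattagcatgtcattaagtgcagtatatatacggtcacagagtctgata
Csn1s2a: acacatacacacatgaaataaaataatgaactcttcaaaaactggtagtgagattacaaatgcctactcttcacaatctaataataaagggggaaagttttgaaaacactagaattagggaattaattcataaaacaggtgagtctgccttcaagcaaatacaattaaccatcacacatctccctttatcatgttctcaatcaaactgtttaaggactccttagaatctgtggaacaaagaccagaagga
Csn1s1 holds TTCTTAGAA from 100 to 92 bases before the start and Csn2 holds TTCTTGGAA from 93 to 85 bases before it. No match lies in the Csn1s2a window. GENCODE M21 places the start of Csn1s2a at 87774567, beyond that window, and the start of Csn2 at 87699630, inside its window. Bases before these other starts were not searched, so the lack of a match holds for the RefSeq window only. Of 13 called milk genes 9 had a promoter entry and 2 held the motif, which stood in 7.02% of 32851 RefSeq promoters of this length on either strand.

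Signalling and patterning genes were tested from lists in the same way. Of 31 tested Wnt pathway genes (34 listed) 23 were higher, 4 lower and 4 not called, with a median of 1.88. Among ligands, Wnt10a had 1 read in luminal and 303 in DNp63 basal, a ratio of 377 (95% exact counting interval from 67.1 to 14900). Wnt4, a progesterone-responsive luminal ligand, ran the other way with 5447 and 4590 against 371 and 281. Of the inhibitors, Wif1 read 32 and 12 against 1720 and 2877, a difference of 6.28 ± 0.40. Dkk3 differed by 5.26 ± 0.44 (4.58 without CD1 luminal library 1 and 6.03 without library 2) and Nkd1 by 5.04 ± 0.25. Lgr5, a receptor for R-spondins named after its values were seen, read 86 and 193 against 4852 and 3472.

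Of 21 tested Notch pathway genes 12 were higher, 4 lower and 5 not called, with a median of 0.80 (11 higher and 2 lower without DNp63 basal library 2). The ligands Dll1 and Jag2 differed by 5.50 ± 0.32 and 5.27 ± 0.16: Dll1 read 43 and 75 in luminal against 2778 and 3201, and Jag2 read 93 and 82 against 3823 and 3646. Dll4, a ligand known from blood vessels, read 40 and 75 against 1682 and 919. Of the receptors, Notch2 and Notch3 were lower, by -0.68 and -0.79. The 4 of 21 called lower were near the share of all tested genes called lower (22.2%). Higher Notch ligands and higher endothelial markers were seen in the same libraries, and the endothelial part was not tested.

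Of 17 tested EMT regulators and mesenchymal genes 11 were higher, 1 lower and 5 not called, with a median of 2.75. Without DNp63 basal library 1 the higher count was 7, and without library 2 it was 8. Snai2, a repressor that marks basal cells in this tissue, read 22 and 60 in luminal and 1728 and 1891 in DNp63 basal, a difference of 5.30 ± 0.37 (5.95 without CD1 luminal library 2). Zeb1 differed by 3.20 ± 0.35 and the adhesion gene Cdh2 by 4.20 ± 0.54, or by 5.07 and 3.43 without CD1 luminal library 1 and 2. The 1 lower gene was Sox9 (-1.81 ± 0.15), a factor of luminal progenitors. Mmp2, a matrix protease of fibroblasts, read 103 and 1890 in luminal against 5838 and 7010. Its difference of 3.77 became 1.78 without CD1 luminal library 1 and 5.88 without library 2, and the call was lost without either DNp63 basal library (3.91 and 3.64).

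Of 15 IGF system genes 11 were higher, 1 lower and 3 not called, with a median of 2.01. There were 8 higher and none lower without DNp63 basal library 2. Pappa, a protease that frees IGF from its binding proteins, had values of 6571 and 7180 (DNp63 basal), 2047 and 3031 (CD1 basal) and 40 and 52 (CD1 luminal), a difference from luminal of 6.98 ± 0.23. Of 18 tested Iroquois and Hox genes (27 listed) 13 were higher, 1 lower and 4 not called. Of the 18 tested, 3 passed the filter only through the DNp63 basal libraries, and with a filter at a value of 100 the count fell to 7 higher and 1 lower. Hoxd8 had 3 reads in luminal and 157 in DNp63 basal, a ratio of 65 (95% exact counting interval from 21.9 to 319), and Hoxa7 was at least 18.2-fold higher, with no read in luminal. The 1 lower gene was Irx3, with 1717 and 1664 against 658 and 774, opposite in direction to Irx4.

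Of 37 axon guidance genes 27 were higher, 3 lower and 7 not called, with a median of 2.07. Ephb1, an ephrin receptor, read 8 and 8 in luminal against 696 and 793, a difference of 5.54 ± 0.29. Robo2, a receptor for Slit proteins, differed by 5.17 ± 0.64 (4.53 and 5.90 without CD1 luminal library 1 and 2). One of its ligands, Slit3, read 57 and 234 against 3393 and 3699, with 3.90 and 5.80 in the same fits. The neurotrophin and ErbB list split, with 8 higher, 7 lower and 4 not called of 19. The ligand Nrg1 was higher by 4.38 ± 0.25. Its receptors Erbb3 and Erbb4 were lower by -3.74 ± 0.17 and -4.10 ± 0.29. Ligand and receptors thus lay on opposite sides in the 2 cell groups.

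Among the highest called genes outside these lists were Reln, Cxcl14, Elovl4, Adamts18 and Tenm2. Reln, a secreted glycoprotein, read 50 and 41 in luminal and 6950 and 10622 in DNp63 basal, a difference of 7.31 ± 0.28. Cxcl14, a chemokine, read 132 and 152 against 20736 and 20895, a difference of 7.09 ± 0.13. Elovl4, an enzyme of very long fatty acid synthesis, had 1 read in luminal and 697 in DNp63 basal, a ratio of 866 (95% exact counting interval from 155 to 34300). The protease Adamts18 and the teneurin Tenm2 differed by 7.10 ± 0.27 and 6.89 ± 0.22. At the other end, Zfp990, a zinc finger gene, had values of 17 and 0 (DNp63 basal), 582 and 687 (CD1 basal) and 1543 and 2912 (CD1 luminal). The DNp63 luminal libraries, with 3 and 0, were as low in Zfp990, so its low value was common to the DNp63 mice, whose strain cannot be told apart from the transgene.

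DNp63 basal and CD1 basal cells were compared directly in the same fit. This contrast is also the test of whether a gene's difference from CD1 luminal is larger or smaller in DNp63 basal than in CD1 basal. It called 121 of 16900 genes (0.716%), 33 higher (0.195%) and 88 lower (0.521%). Both libraries of 1 basal group lay above both of the other for 19.8% of genes in the higher and 22.8% in the lower direction. The count rested on each library: it was 3 without CD1 basal library 1, 40 without CD1 basal library 2, 10 without DNp63 basal library 1 and 21 without DNp63 basal library 2. In the fit of these 2 groups alone the split was 63 higher and 52 lower.

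Luminal and milk genes were lower in DNp63 basal than in native basal cells. Of the tested members, 10 of 29 luminal keratin and polarity genes, 5 of 20 hormone-sensing genes, 5 of 21 luminal progenitor genes and 8 of 14 milk genes were called lower, and none of these lists had a member called higher. In the same order limma voom on recovered reads called 5, 2, 1 and 3, and limma with no filter 5, 2, 2 and 5. The progenitor genes called lower included Folr1, and Lalba, Ltf and Csn3, which the plot of luminal and milk genes draws as milk protein genes. The progenitor count is therefore not separate from the milk result. Elf5 was not called (limma adjusted p = 0.0785). Krt18 read 2104 and 2423 in DNp63 basal against 7339 and 5897 in CD1 basal, a difference of -1.56 ± 0.13 (limma adjusted p = 0.00334). Krt8 read 3688 and 4293 in DNp63 basal against 8264 and 7206 in CD1 basal, a difference of -0.97 ± 0.12 (limma adjusted p = 0.0140). Foxa1 and Prlr differed by -1.92 and -1.68, and Cldn4 by -1.48. In each of these 5 genes the CD1 basal libraries lay between the other groups, as the plot of luminal and milk genes shows. The luminal keratin and polarity count was 0 without CD1 basal library 1 or without DNp63 basal library 1 (15 and 18 members with an unadjusted p under 0.05), 5 without CD1 basal library 2 and 2 without DNp63 basal library 2. The milk count was 1, 4, 5 and 5 without CD1 basal library 1, DNp63 basal library 1, CD1 basal library 2 and DNp63 basal library 2. The hormone-sensing count was 0, 0, 1 and 1 (11 and 10 members with an unadjusted p under 0.05 where it was 0), and the progenitor count 0 (10 members so), 1, 3 and 3, in that order of libraries. The directions of the named genes did not turn. The lists differed in the DNp63 luminal libraries. Their median difference from CD1 luminal, not tested, was -1.84 for milk and -0.98 for progenitor genes. It was -0.10 for hormone-sensing and -0.05 for luminal keratin and polarity genes. Lalba, Ltf, Csn3 and Folr1 differed there from CD1 luminal by -4.12, -2.01, -1.44 and -1.15. For the milk genes, and for Folr1, strain and transgene cannot be told apart. The part of any luminal cells sorted with the CD1 basal cells, which had no GFP gate, was not tested.

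**Figure D3:**
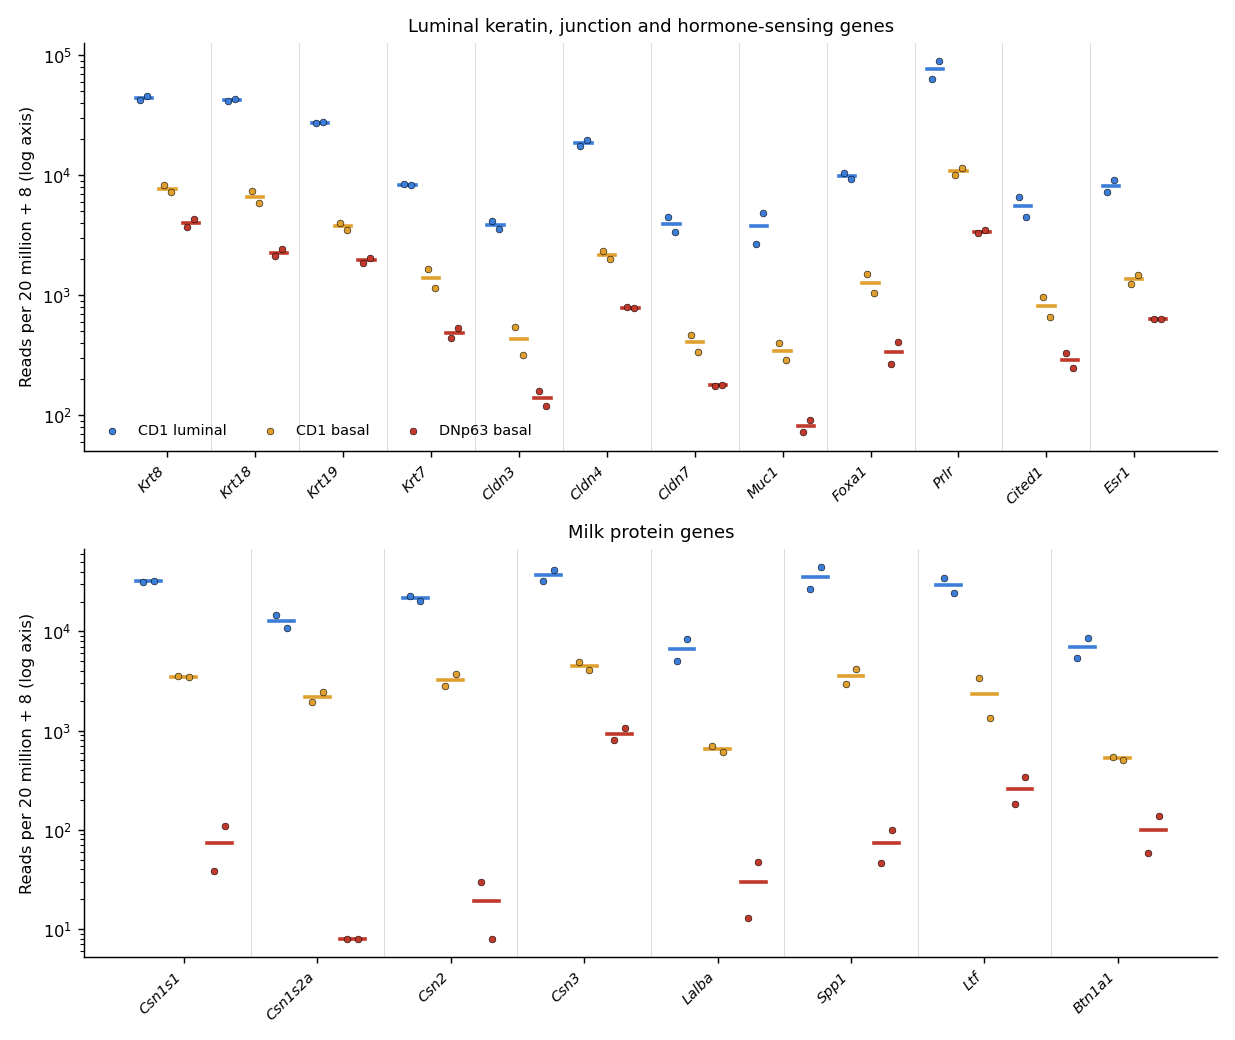
Reads per 20000000 plus 8 (log axis) of luminal genes (upper panel) and milk protein genes (lower panel); points are libraries, bars are group means. In every gene drawn the groups are ordered CD1 luminal, CD1 basal, DNp63 basal from high to low. Csn1s2a is at 0 reads in both DNp63 basal libraries, drawn at 8. The DNp63 luminal libraries, also low in the caseins of the text, are not drawn.

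The 33 higher genes included few members of the lists. One basal identity gene, Krt15, a keratin of basal and progenitor layers, had values of 4742 and 5831 (DNp63 basal), 1104 and 631 (CD1 basal) and 227 and 134 (CD1 luminal). Its difference from CD1 basal was 2.63 ± 0.30 (adjusted p = 0.00897). One p63-linked gene, Dsg3, a desmosomal cadherin of stratified epithelia, read 220 and 194, then 28 and 24, then 8 and 8 in the same order of groups. Pappa, the IGF-freeing protease, was higher by 1.44 ± 0.23 (adjusted p = 0.0365). Vcan, the matrix proteoglycan versican, read 3356 and 4508 in CD1 basal against 13622 and 23612. Krt15, Dsg3 and Vcan were named after their values were seen. Fibroblast markers, which include matrix genes, lay the same way: their sum was 90554 and 113060 in DNp63 basal against 30190 and 68620 in CD1 basal, with a median difference of 1.38 and both DNp63 basal libraries above both CD1 basal ones for 11 of 15 markers. Limma and limma voom each called 0 of the 15, with 6 and 8 at an unadjusted p under 0.05, and the part of fibroblasts was not tested. The calls of all 4 were lost without CD1 basal library 1 (adjusted p from 0.0625 to 0.248), and also without each other library of the 2 groups (adjusted p from 0.0526 to 0.288). Their differences stayed at 1.14 or higher in each such fit.

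The genes with the largest positive differences from CD1 basal were, by contrast, at low values in CD1 luminal and CD1 basal alike. Dmbt1, a secreted mucosal glycoprotein, had values of 342 and 2263 (DNp63 basal), 28 and 16 (CD1 basal) and 43 and 60 (CD1 luminal). The 2 DNp63 basal libraries were far apart in Dmbt1, and its difference from CD1 luminal of 3.89 became 5.25 without library 1 and 2.54 without library 2. Its difference from CD1 basal of 4.91 (adjusted p = 0.03) was not called without DNp63 basal library 2 (3.56, adjusted p = 0.0543) or without CD1 basal library 1 (5.19, adjusted p = 0.182) or 2 (4.64, adjusted p = 0.168), and was 6.26 without DNp63 basal library 1. The uncharacterised gene 1600014C10Rik read 2019 and 3008 in DNp63 basal, above 197 and 212 in CD1 basal and 139 and 156 in CD1 luminal. Trim12a, Gm25939, 6820402A03Rik and Gm36970 were low in both CD1 groups and raised in the DNp63 basal libraries, with Trim12a at 203 and 213 and Gm25939 at 485 and 585. These 4 were also raised in the DNp63 luminal libraries, so that mouse strain and transgene cannot be told apart for them.

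**Figure D4:**
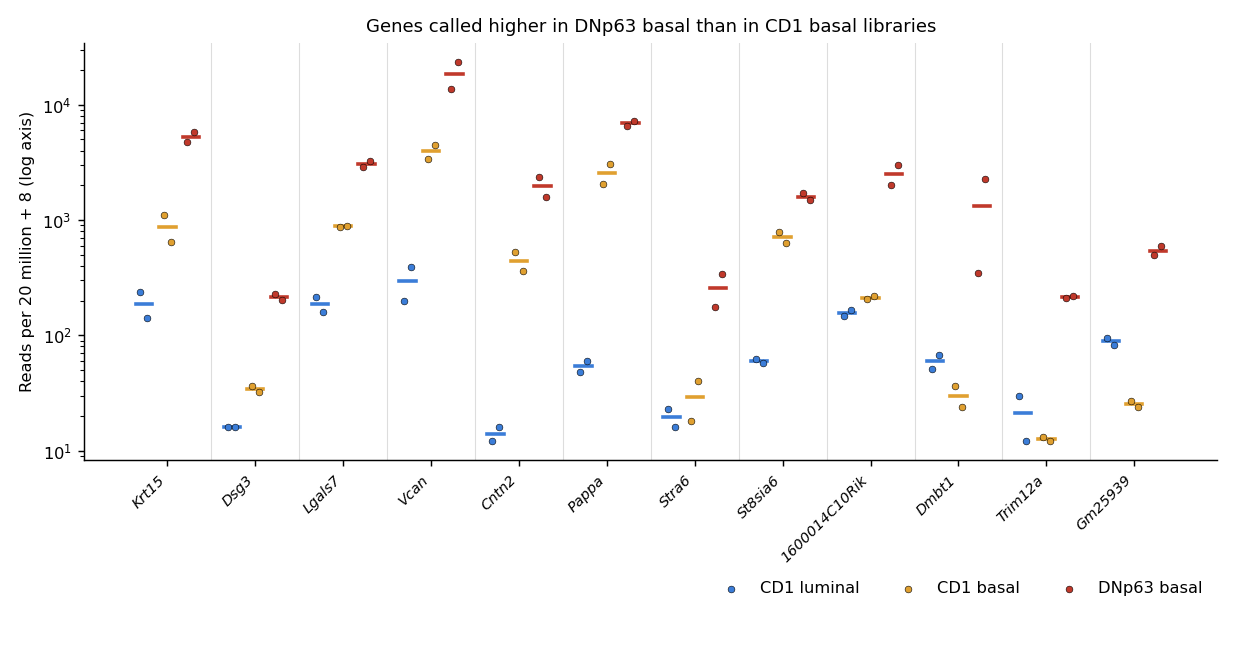
Reads per 20000000 plus 8 (log axis) of 12 genes called higher in DNp63 basal than in CD1 basal libraries (x axis); points are libraries, bars are group means. Krt15 steps up from CD1 luminal through CD1 basal to DNp63 basal, while Dmbt1, Trim12a and Gm25939 are low in both CD1 groups.

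Markers of other cells were measured in the same libraries. Endothelial markers were higher in DNp63 basal than in CD1 luminal for 17 of 18 genes, with a median of 4.78. This was so although CD31-bearing cells were gated out and the DNp63 basal cells were also sorted as GFP+. Summed values of the endothelial markers were 88464 and 64210 (DNp63 basal), 91394 and 90030 (CD1 basal) and 5778 and 4801 (CD1 luminal). Cdh5, a cadherin of endothelium, read 348 and 323 in luminal and 15106 and 11042 in DNp63 basal, and Pecam1, the gene of CD31, was higher as well, with 419 and 571 against 7637 and 4980. Limma and limma voom each called 0 endothelial markers between the 2 basal groups. At an unadjusted p under 0.05 there were 1 by limma and 4 by limma voom, all lower in DNp63 basal. Pericyte markers were higher for 12 of 13 and lower for 1, and adipocyte markers were higher for 10 of 13, 2 of which 13 passed the filter only through the DNp63 basal libraries. Adipoq, the hormone that defines fat cells, read 68 and 78 in DNp63 basal against 4 and 8. The adipocyte list summed to 66964 and 45120 in DNp63 basal, so Adipoq was a small part of that sum. Cd36 and Fabp4, with means of 30092 and 17235.5 in DNp63 basal, were far higher than Adipoq. Schwann cell markers were higher for 8 of 10 and lower for 1. A bulk library cannot tell more cells of a type from more RNA per cell, and the part of these cells in the differences above was not tested. Whether cells without GFP, native basal cells included, were sorted with the DNp63 basal cells was not tested either.

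Fibroblast markers were higher for 10 of 15 tested genes, but CD1 luminal library 2 stood apart with a summed value of 48638 against 10638 in library 1. Pdgfra, the gene of the CD140a antigen, read 196 and 1049 in luminal and 1741 and 2978 in DNp63 basal. The count of called fibroblast markers fell to 2 without DNp63 basal library 2, 4 without DNp63 basal library 1 and 5 without CD1 luminal library 1. Immune markers gave 2 higher, none lower and 9 not called of 11 tested, and 5 called, 2 higher and 3 lower, without DNp63 basal library 2. Ptprc, the gene of CD45, read 47 and 75 in luminal against 30 and 126. The haemoglobin gene Hba-a1 was at 8 or less in these 4 libraries, and the 1 red cell marker that passed the filter was not called.

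**Figure D5:**
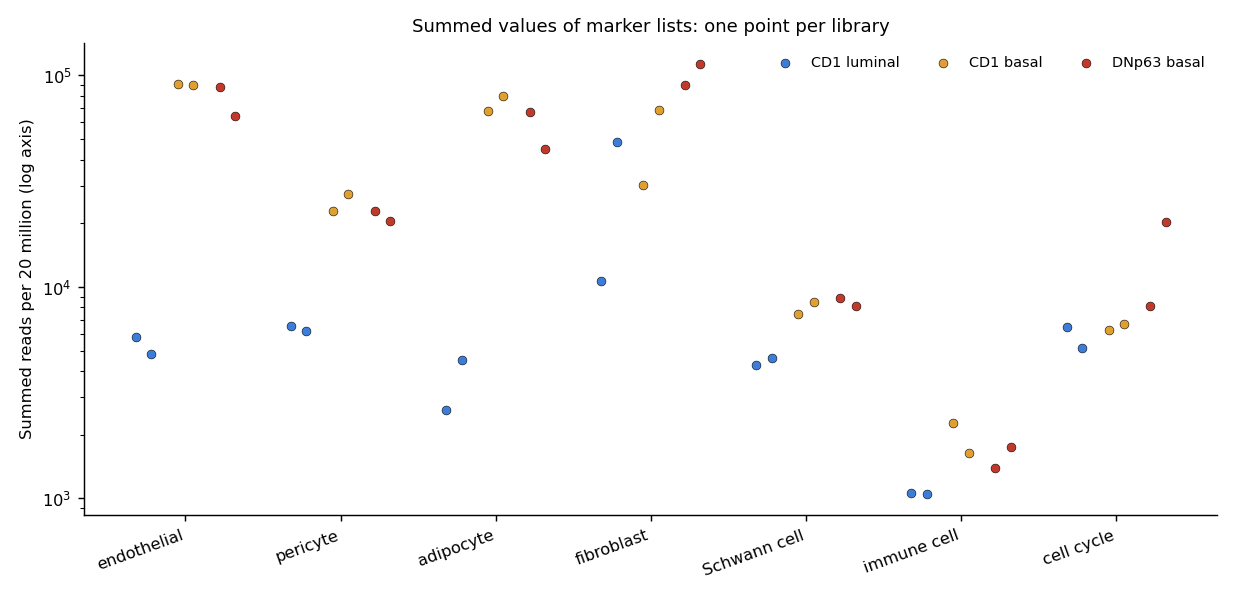
Summed reads per 20000000 (log axis) of marker lists (x axis), 1 point per library of the 3 groups compared. Endothelial, pericyte and adipocyte sums are higher in both basal groups than in CD1 luminal. For endothelial and adipocyte markers both DNp63 basal sums lie below both CD1 basal sums, and for pericyte markers the 2 basal groups overlap. DNp63 basal library 2, at 20320, is the highest drawn in the cell cycle sum (DNp63 luminal library 2, not drawn, was at 20140).

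Cell cycle calls rested largely on 1 library. Of 28 genes 15 were higher, 1 lower and 12 not called, with a median of 1.70, and 2 of the 28 passed the filter only through the DNp63 basal libraries. Their summed value was 6444 and 5143 in CD1 luminal, and 8132 and 20320 in DNp63 basal. Mki67, a proliferation marker, read 224 and 452 in luminal and 1396 and 6073 in DNp63 basal, a difference of 3.13 ± 0.80. Without DNp63 basal library 2 only 4 genes were called, 2 in each direction, and the Mki67 difference was 2.07 and not called. DNp63 luminal library 2, the other library low in Xist, had a cell cycle sum of 20140, and the other 6 libraries lay between 5143 and 8320. Mki67 also lost its call without CD1 luminal library 1 (2.69), and its difference was 4.19 without DNp63 basal library 1.

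Stress and other response lists had calls in both directions, as all tested genes did (25.1% higher and 22.2% lower). Of 25 immediate-early and dissociation stress genes 14 were higher, 7 lower and 4 not called. Egr2, a growth-induced zinc finger factor, was higher by 3.73 ± 0.28 and Klf6 was lower by -1.87 ± 0.14. Without DNp63 basal library 1 that list gave 8 higher and 5 lower. Of 24 interferon response genes 7 were higher and 5 lower, near the shares of all genes, and the balance turned to 4 and 7 without DNp63 basal library 2 and to 4 and 5 with no filter. Among them were Ifit2 at 3.31 ± 0.44 and Oas3 with 67 reads in luminal against 3 in DNp63 basal, a ratio of 18 (95% exact counting interval from 5.89 to 89.3). Of 23 p53 target genes 6 were higher and 7 lower, also near those shares (6 and 4 without CD1 luminal library 2, 5 and 4 without DNp63 basal library 1), with Phlda3 at 2.82 ± 0.24 and Trp53inp1 at -2.90 ± 0.16. Of 11 mitochondrial genes 1, mt-Atp8, was lower, and its call was lost when any of the 4 libraries was left out (from -1.02 to -1.36).

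Motile cilium genes gave 9 higher, 3 lower and 14 not called of 26 tested (33 listed), with a median of 0.20. The called share was near the 47.2% of all tested genes (25.1% higher and 22.2% lower). The higher count was 5 without either DNp63 basal library and 6 without CD1 luminal library 1 or with no filter, and 1 member passed the filter only through the DNp63 basal libraries. Cfap54, a protein of the axoneme, read 4 and 15 in luminal and 321 and 397 in DNp63 basal, a difference of 4.44 ± 0.32, and CD1 basal libraries read 358 and 356. Cfap44 differed by 2.81 ± 0.42, or 3.45 without CD1 luminal library 2. Myb, a factor of ciliated cell differentiation that luminal cells also express, read 1568 and 1993 against 144 and 54, a difference of -4.22 ± 0.36 (-4.86 and -3.58 without DNp63 basal library 1 and 2). Dnaic1, a dynein intermediate chain, read 554 and 464 against 38 and 30. Limma and limma voom each called 0 genes of this list between DNp63 basal and CD1 basal, with 7 at an unadjusted p under 0.05 by limma.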

How the data were processed

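Bulk RNA-seq was made from 8 sorted libraries. Per the submitters' processing notes, STAR, HTSeq and GRCm38/mm10 were used; no version, annotation or strand setting is stated there. The deposited values are a score: read counts that the authors scaled to 20000000 per library and rounded up, as the values themselves show, since 99.9 to 100% of those up to 1000 lie within 1 above a whole multiple of 1 read (20.7 to 36% would by chance). They are not raw counts, so the test was limma 3.58.1 (R 4.3.3) with an intensity trend on log2(value / TMM factor + 8), all 4 groups sharing the spread, two-sided, with Benjamini-Hochberg adjustment over 16900 genes that reached 40 in at least 2 libraries (between 8.3 and 14.4 reads). A fold on this scale understates the change of low genes. The fit was tested on simulated data for this comparison. It recovered 69% of 100 genes changed 2-fold and 100% of 100 changed 4-fold, with 7 false calls among 16678 genes. The simulation was simpler than the data: 200 genes were changed, against 7981 called here. The changed genes lay above a floor in CD1 luminal that was higher than the filter of the test. All genes shared a single excess spread and libraries were drawn independently, so the rates may not hold for the real libraries or for low genes. Counting intervals cover counting error only. Coordinates come from GENCODE M21, matched for 49412 of 49671 genes.

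Members and lists were chosen with earlier results of these data known. Named genes are 11 lineage genes, up to 4 called genes of each list with the largest differences, the 12 highest and 12 lowest called genes (6 and 6 against CD1 basal) without overlap and with a mean of at least 100, and exceptions to a list's direction; others are said to be named after their values were seen. Replicate numbers did not pair DNp63 with CD1 libraries: deviations of same-numbered libraries correlated at -0.0144 (CD1 luminal with DNp63 basal) and 0.0404 (CD1 basal with DNp63 basal). Within a genotype they correlated at 0.341 (CD1 luminal with basal) and 0.267 (DNp63 luminal with basal), whereas the shared spread treats all 8 libraries as independent. Alternatives in scaling, pseudocount, filter, test, block and libraries used are given in the closing section.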

Additional observations from a re-analysis of the deposited data

Results flagged for a closer look

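The DNp63 luminal libraries, GFP+ CD29low cells of the transgenic mice, enter neither comparison, and 7 of the named genes with a mean of at least 100 there were over 4-fold higher in both of them than in either CD1 luminal library. Mean values in DNp63 luminal were 1378.5 for Trp63, 40993.5 for Dmbt1, 1270 for Cfap54, 765 for Cfap44, 893 for Gm25939, 314 for Gm36970 and 213 for Bub1b. Trp63 there was under its values in DNp63 basal. Dmbt1 read 26146 and 55841 there, far over the 342 and 2263 of DNp63 basal. Cfap54, Cfap44, Gm25939 and Gm36970 were also higher there than in the DNp63 basal libraries. Bub1b, a mitotic checkpoint gene, read 109 and 317 there and 51 and 363 in DNp63 basal.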

How the results depend on the processing

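For DNp63 basal against CD1 luminal, each of the 13 alternatives kept the count of called genes within 1.5 times of 7981: it ran from 6710 (the 2 groups compared alone) to 8288 (with the replicate block) over the settings, and from 5915 to 7283 when 1 library was left out. Those fits assume that the lone library of a group varies like the others. No named difference from CD1 luminal turned direction, and no named difference called against CD1 basal did. Named differences from CD1 basal that were not called were not followed through these alternatives. For DNp63 basal against CD1 basal, the 121 calls became 45 with no filter on low values (19 higher, 26 lower), 65 with limma voom on recovered reads (41 higher, 24 lower) and 203 with the replicate block (74 higher, 129 lower), and from 3 to 40 when 1 library was left out; the cause was not tested beyond the fewer libraries or the larger number of genes. Other scalings, pseudocounts and a filter at 100 gave 113 to 144. With no filter the fibroblast list had 4 called members and the cell cycle list 10, and voom gave 9 for the cell cycle list. With 2 libraries a group, 1 library can decide a call, and a gene under about 40 (8.3 to 14.4 reads) was rarely tested.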
